A study of Homo sapiens with 9 samples.

Results

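The proteasome subunit genes were taken as every row of the table whose symbol begins PSMA, PSMB, PSMC, PSMD or PSME and ends in a number. This gave 43 genes of 26929 in all. The cells were MV4-11, an established line of human acute myeloid leukaemia grown in RPMI-1640 with serum. They were exposed for 24 h to JPX-0700, to JPX-0750 or to DMSO, the vehicle. The study's title speaks of degraders of STAT3 and STAT5, which are transcription factors downstream of cytokine receptors, and no dose is in the labels. Each group had 3 libraries, all from 1 cell line. Nothing in the labels says that replicates were separate cultures, so p-values measure the spread between these samples, which may be technical.

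The proteasome is the protease that destroys proteins tagged with ubiquitin. Its core particle is a stack of rings: the outer rings of alpha subunits (PSMA genes) gate the entrance, and the inner rings of beta subunits (PSMB genes) hold the cutting sites. A regulatory particle sits on the core, with a ring of ATPases (PSMC genes) that unfolds substrates and threads them inward, and with non-ATPase subunits (PSMD genes) that bind, trim and position ubiquitin chains. PSME proteins form other caps, and in haematopoietic cells PSMB8, PSMB9 and PSMB10 can replace the constitutive cutting subunits to form the immunoproteasome.

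Reads per library, recovered from the deposited normalised counts, ran from 2701317 to 6305586 with DMSO, from 739418 to 1852375 with JPX-0700 and from 726043 to 1941860 with JPX-0750. Protein-coding genes took 98.0% to 98.4% of reads with DMSO, 79.9% to 82.5% with JPX-0700 and 76.2% to 80.1% with JPX-0750. Structured noncoding RNAs took 6.45% to 13.3% of reads in treated libraries and at most 0.261% with DMSO. DMSO replicate 1 and replicate 3 of each compound detected 9816 to 10407 genes, against 13068 to 14616 in the other 6. Correlations across genes with the treated partner libraries were 0.611 to 0.686 for those 2 treated libraries, against 0.843 and 0.886 between the other treated replicates. Between DMSO libraries they were 0.869 and 0.875 for replicate 1 and 0.941 for the remaining pair. The 11 myeloid markers were all detected and summed to 6011 to 9705 normalised counts with DMSO, 3004 to 5213 with JPX-0700 and 2465 to 4282 with JPX-0750. Of that sum, LYZ gave 4055 to 7377, 1152 to 2659 and 801 to 2742 in the same order, and MEIS1 gave 120.4 to 200.2, 172 to 730.5 and 297 to 503. MPO, HOXA9 and ITGAM, which are on that list, were at or near 0 in most libraries. T and NK cell, B cell, erythroid, and epithelial and fibroblast lists each summed to at most 129.9 in any library. The erythroid marker HBB and the epithelial markers EPCAM and KRT19 were at 0 throughout, but other markers on these lists were detected. The fibroblast marker COL1A1 read 0 in every DMSO library and 4.55 to 108.3 in treated libraries, with the highest value in JPX-0750 replicate 3. The epithelial marker KRT18 read 26.4 to 47.9 with DMSO and 0 to 23.04 in treated libraries. On the T and NK cell list, CD3D was above 0 only in JPX-0700 replicate 3, and GNLY was highest in JPX-0750 replicate 3. The part of these shifts in the results below was not tested, and in bulk samples fewer cells of a type and less RNA per cell cannot be told apart.

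Promoter stretches are shown for subunits described below, from RefSeq (GRCh38.p14), which held a promoter window for 38 of the 43 genes. The ATPase genes PSMC1 and PSMC6 are those whose JPX-0700 libraries all lay above the DMSO libraries on the deposited scaling. PSMA4, PSMC5 and PSMD12 carry TGACNNNGC, the core of the antioxidant response element through which the factor NFE2L1 is known to act on proteasome genes. Some genes have several windows, and these stretches were taken from windows that hold the motif. Those of PSMA4 and PSMC5 lie inside their genes, which begin at 78540405 and 63827431, before a start site further downstream. PSMB10 and PSME2 carry the interferon-stimulated response element in reverse complement. Capitals mark a match to either motif on either strand, and each run reads 5′ to 3′ on the gene's strand.
PSMC1 (chr14:90256433-90256552, plus strand): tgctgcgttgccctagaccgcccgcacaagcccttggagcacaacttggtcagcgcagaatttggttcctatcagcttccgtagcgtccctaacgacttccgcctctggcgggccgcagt
PSMC6 (chr14:52707080-52707199, plus strand): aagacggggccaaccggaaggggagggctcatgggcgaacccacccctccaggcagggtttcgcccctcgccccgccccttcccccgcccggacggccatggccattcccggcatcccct
PSMA4 (chr15:78540636-78540695, plus strand): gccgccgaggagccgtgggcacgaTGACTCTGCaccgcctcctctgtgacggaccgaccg
PSMC5 (chr17:63827641-63827700, plus strand): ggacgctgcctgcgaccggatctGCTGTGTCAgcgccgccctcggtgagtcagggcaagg
PSMD12 (chr17:67366708-67366767, minus strand): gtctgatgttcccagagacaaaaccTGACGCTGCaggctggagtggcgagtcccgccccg
PSMB10 (chr16:67936851-67936910, minus strand): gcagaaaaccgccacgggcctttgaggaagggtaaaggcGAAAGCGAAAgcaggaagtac
PSME2 (chr14:24146611-24146670, minus strand): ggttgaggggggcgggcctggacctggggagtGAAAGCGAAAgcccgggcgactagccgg

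The whole windows span 250 bases before to 50 after a start site, and a gene with several windows counted if any of them matched. TGACNNNGC matched on either strand in 13 of the 38 subunit genes (34.2%), against 16.1% of 27305 genes. The interferon-stimulated response element matched in 6 (15.8%, against 4.38%): PSMA4, PSMB4, PSMB8, PSMB10, PSME1 and PSME2. The short motif CCAAT matched in 19 (50%, against 39.7%), and the heat shock element GAANNTTC in 0, against 8.21% of genes. A gene can hold several of these motifs, and a match is a run of letters, not a measured site.

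With DMSO most of the subunit genes were expressed at high levels. In 39 genes that passed a mean of 5 normalised counts over the 9 libraries, the median DMSO level was 389 normalised counts, against 51.3 over all 12301 genes tested, and 28 of the 39 lay within 2-fold of that median. The QuantSeq method reads 1 site near the 3′ end of each transcript, so levels were compared between genes without a length term. PSMA7, a core alpha subunit, led with 1494 ± 121 (SD, n = 3), followed by PSMB1, a core beta subunit, with 874 ± 556, and PSMD8, a lid subunit, with 863 ± 200.2. The lowest of the 39 was PSMB7, which carries the trypsin-like site, at 2.33 ± 2.75. That value rests on 17 reads. PSMB5 and PSMB6, the other constitutive cutting subunits, had DMSO means of 390 and 562, so the PSMB7 level is given only as the listed value.

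The other 4 genes, PSMB3, PSMB8, PSMB9 and PSMB11, were listed at 0 in all 9 libraries. PSMB11 belongs to the thymus form of the proteasome, whereas PSMB3 is a structural subunit of every core particle, so its 0 is given only as the listed value. Of the protein-coding genes within 500 kb, 12 of 21 around PSMB3 (57.1%) and 20 of 32 around PSMB8 and around PSMB9 (62.5%) were at 0 too, against 22.3% of all 18997 protein-coding genes. TAP1 and TAP2, the peptide transporter genes beside PSMB8 and PSMB9, were among them. Around PSMB7 the count was 2 of 8, and around PSMC1 it was 0 of 5. The immunoproteasome could therefore be followed only through PSMB10.

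**Figure D1:**
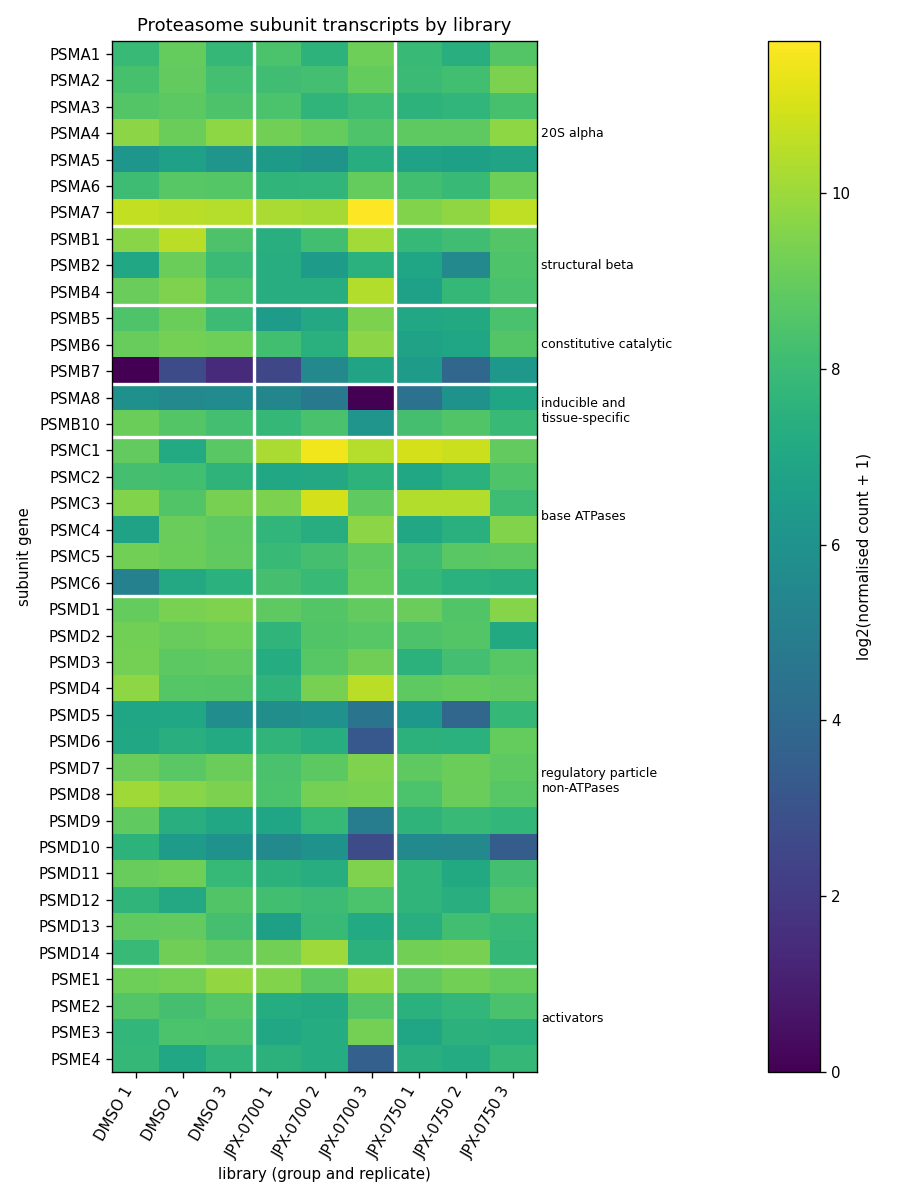
Normalised counts of the 39 subunit genes with a value in this table, as log2(normalised count + 1), with genes in rows ordered by class and the 9 libraries in columns ordered by group. Most rows are of like colour, PSMA7 is bright in all 9 libraries, and PSMB7 is dark in the 3 DMSO libraries.

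Reads on the subunit genes made up a smaller part of each treated library, which is given as a description with no test. As a share of protein-coding reads the family took 0.710%, 0.724% and 0.708% in the DMSO libraries, 0.422%, 0.570% and 0.509% after JPX-0700 and 0.443%, 0.502% and 0.585% after JPX-0750. All 6 treated libraries lay below all 3 DMSO libraries, whose mean was 0.714% ± 0.00873 (SD, n = 3), against 0.5001% ± 0.0743 with JPX-0700 and 0.510% ± 0.0711 with JPX-0750. Taken over all reads, noncoding ones included, the means were 0.701% ± 0.00996, 0.408% ± 0.0653 and 0.402% ± 0.0654. The classes had different shares. Non-ATPase regulatory subunits went from 0.250% ± 0.0211 of protein-coding reads to 0.148% ± 0.0343 and 0.164% ± 0.0199, with no overlap between DMSO and either compound. The activators did not overlap either, going from 0.0681% ± 0.0164 to 0.0409% ± 0.00705 and 0.0417% ± 0.00688. Structural beta and constitutive catalytic subunits lay below DMSO in every JPX-0750 library but overlapped with JPX-0700. Inducible and tissue-specific subunits lay below DMSO in every JPX-0700 library but overlapped with JPX-0750. Alpha subunits went from 0.164% ± 0.00554 to 0.115% ± 0.0200 and 0.115% ± 0.0513, with JPX-0750 replicate 3 at 0.174%, above every DMSO library. Base ATPases stood at 0.0974% ± 0.0131, 0.134% ± 0.0656 and 0.131% ± 0.0317. Both treated groups overlapped DMSO, and JPX-0700 replicate 2 was the highest library at 0.209%. Without PSMC1, a split made after its values were seen, they stood at 0.0820% ± 0.00824, 0.0732% ± 0.0275 and 0.0787% ± 0.00670, with overlapping groups.

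**Figure D2:**
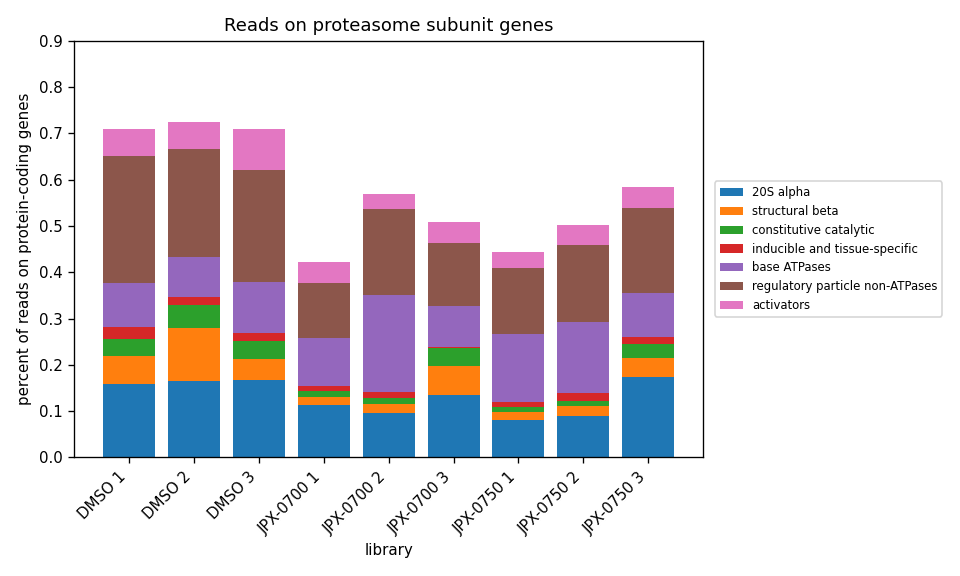
Share of protein-coding reads on proteasome subunit genes in each of the 9 libraries, stacked by subunit class, in percent. The DMSO bars reach 0.708% to 0.724% and the treated bars 0.422% to 0.585%.

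Gene by gene, the limma fit called 1 of 39 tested subunits with JPX-0700, which rose, and 0 that fell, at a Benjamini-Hochberg adjusted p under 0.05 over all genes. The background was 5.77% of all genes called, of which 5.28% were higher and 0.496% lower. With JPX-0750 it called 0 in either direction against a background of 3.98% (3.90% higher and 0.0732% lower). An unadjusted p under 0.05 was found for 4 subunits with each compound, and for 2407 (JPX-0700) and 1748 (JPX-0750) of all 12301 genes. Voom on the recovered reads called 2 subunits with JPX-0750, where it called 945 of all genes. By sign alone, the fitted value was below 0 for 28 of the 39 with each compound, and for 46.5% (JPX-0700) and 42.5% (JPX-0750) of all genes. The median log2 fold change of the tested subunits was -0.60 with JPX-0700, where that of all genes was 0.14, and -0.37 with JPX-0750, where that of all genes was 0.26. Most genes had lower levels than the subunits. In genes with a mean of at least 50, 49.3% (JPX-0700) and 47.1% (JPX-0750) lay below 0, with medians of 0.03 and 0.09. The subunit medians were then -0.60 and -0.39. The part of expression level in this contrast was not tested. The comparisons of the 2 compounds with DMSO share their DMSO libraries.

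Scaling moved the median of all genes, so the subunits are given relative to it. With total-sum scaling in place of the deposited factors the subunit median was -1.33 and the all-gene median -0.52 for JPX-0700, and they were -0.91 and -0.26 for JPX-0750. The subunit median less the all-gene median was -0.74 for JPX-0700 and -0.63 for JPX-0750 in log2 units. Total-sum scaling also moved the split of all-gene calls, from 649 higher and 61 lower to 378 and 283 with JPX-0700 and from 480 and 9 to 304 and 57 with JPX-0750. It put 36 and 35 of the 39 subunits below 0, and the 1 subunit called with JPX-0700 was then PSMD13, lower, in place of PSMC1. Over 21 alternatives the difference between the medians ran from -1.04 to -0.31 for JPX-0700 and from -1.14 to -0.38 for JPX-0750. Some of these settings, such as leaving out a library of the other compound, could not change the difference.

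On the deposited scaling, some subunits had groups that did not overlap. With JPX-0700, 8 of 39 subunits lay below DMSO in every library (PSMA3, PSMA8, PSMC2, PSMC5, PSMD1, PSMD2, PSMD8 and PSMD13), where 10.3% of all genes did, and PSMC1 and PSMC6 lay above, where 16.5% did. With JPX-0750, 10 lay below (PSMA3, PSMB4, PSMB6, PSMC5, PSMD2, PSMD3, PSMD8, PSMD10, PSMD13 and PSME3), where 9.18% of all genes did, and PSMB7, PSMC1 and PSMD6 lay above, where 19.7% did. As shares of all reads, those below stayed below, and PSMC1 with JPX-0700 and PSMB7 stayed above. PSMC6 did not, at 67 of 891990 reads in JPX-0700 replicate 2 against 330 of 4035371 in DMSO replicate 3. Nor did PSMC1 with JPX-0750, at 292 of 1941860 reads in replicate 3 against 540 of 2701317 in DMSO replicate 1. PSMD6 in JPX-0750 replicate 1 (54 of 1069328) then lay below DMSO replicate 1 (144 of 2701317).

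**Figure D3:**
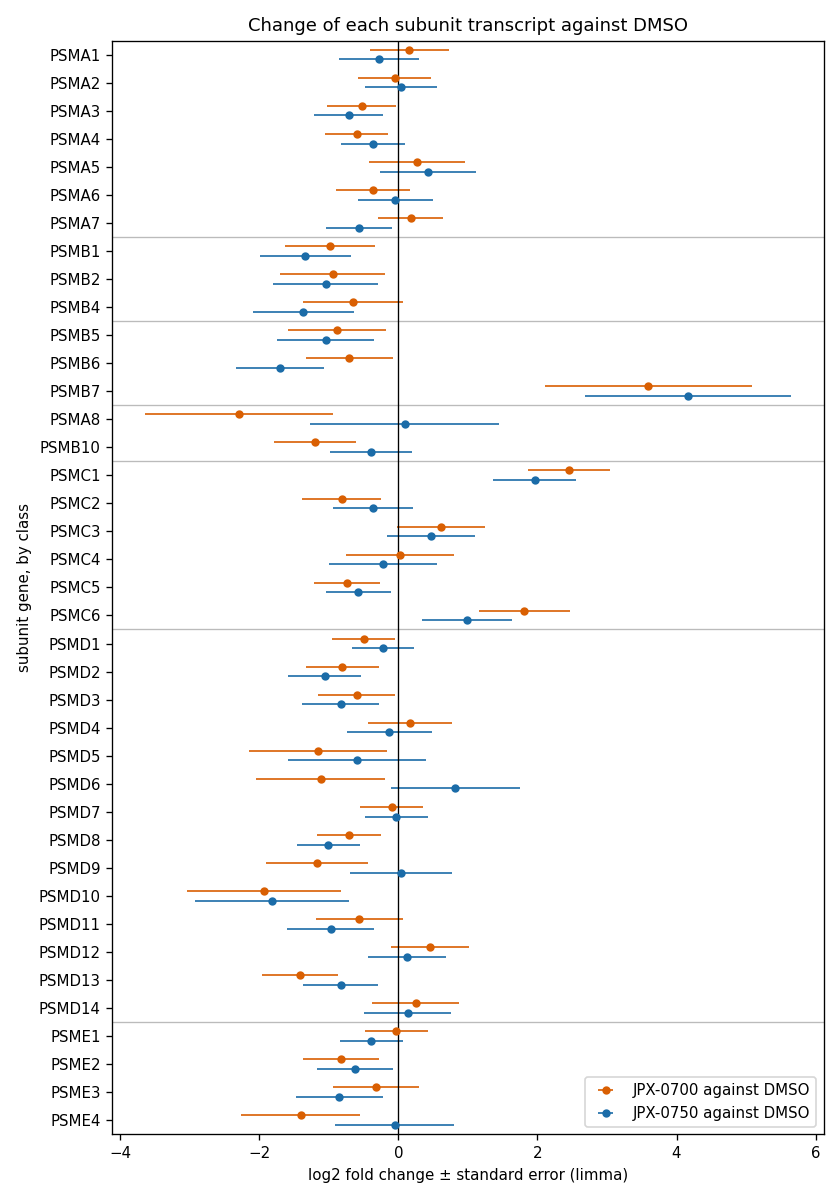
Log2 fold change of each tested subunit gene against DMSO, ± standard error from the limma fit, for JPX-0700 and JPX-0750, with genes ordered by class. Most points lie to the left of 0, PSMC1 and PSMB7 lie to the right with both compounds, and PSMC1 with JPX-0700 is the 1 point that passed the threshold.

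Among the core alpha subunits, 0 of 7 passed the test with either compound, and their fitted log2 fold changes ran from -0.60 to 0.27 with JPX-0700 and from -0.72 to 0.42 with JPX-0750. PSMA7 read 1626, 1467 and 1388 with DMSO, 1217, 1144 and 3415 after JPX-0700 and 722, 891 and 1589 after JPX-0750. Its JPX-0700 mean was carried by replicate 3, which stood above every other library on the deposited scaling. As a share of all reads that replicate (1229 of 1852375) lay just below DMSO replicate 1 (1811 of 2701317). PSMA3 read 386, 432 and 348 under DMSO, 341, 205 and 275 under JPX-0700 and 192, 214 and 317 under JPX-0750. Both treated groups lay below DMSO, and the log2 fold changes of -0.53 ± 0.49 (SE) and -0.72 ± 0.49 did not pass (adjusted p = 0.572 and 0.544). The antisense transcript PSMA3-AS1 overlaps this gene. PSMA4 read 840.5, 542 and 849.5 in the DMSO libraries, 613, 496 and 364 in the JPX-0700 libraries and 459, 459 and 849.6 in the JPX-0750 libraries, so that only JPX-0750 replicate 3 reached the top of the DMSO range. PSMA1, PSMA2, PSMA5 and PSMA6 had treated groups that overlapped DMSO with both compounds, and DMSO means of 80.9 (PSMA5) to 368 (PSMA2). PSMA8, the alpha subunit of the testis proteasome, read 57.5, 45.2 and 49.0 in the DMSO libraries, 41.5, 26.1 and 0 in the JPX-0700 libraries and 20.5, 63.7 and 117 in the JPX-0750 libraries (adjusted p = 0.364 and 0.987).

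Of the 4 structural beta subunits 3 had values, and 0 of the 3 passed. Their fitted log2 fold changes were all below 0 with both compounds, from -0.99 to -0.65 with JPX-0700 and from -1.37 to -1.04 with JPX-0750. PSMB1 read 808, 1461 and 354 with DMSO, 166, 291 and 1112 after JPX-0700 and 233, 282 and 392 after JPX-0750 (log2 fold change -1.34 ± 0.65 with JPX-0750, adjusted p = 0.369). PSMB2 spread from 128 to 548 with DMSO and from 45.5 to 363 in treated libraries. PSMB4 read 533, 717 and 344 under DMSO, 157, 160.3 and 1337 under JPX-0700 and 103, 227 and 325 under JPX-0750. The JPX-0750 libraries were all below DMSO, whereas JPX-0700 replicate 3 was the highest library of the 9 (adjusted p = 0.639 with JPX-0700 and 0.414 with JPX-0750). As a share of all reads that replicate (481 of 1852375) lay below DMSO replicate 2 (1869 of 6305586).

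The constitutive catalytic subunits are PSMB5, with the chymotrypsin-like site, PSMB6, with the caspase-like site, and PSMB7. PSMB5 read 362, 545 and 262 in the DMSO libraries, 87.6, 134 and 689 in the JPX-0700 libraries and 127, 141 and 325 in the JPX-0750 libraries. Replicate 3 of each compound stood apart from replicates 1 and 2, and the log2 fold changes of -0.89 ± 0.70 and -1.05 ± 0.70 did not pass (adjusted p = 0.498 and 0.529). PSMB6 read 512, 617 and 559 with DMSO, 286, 171 and 828 after JPX-0700 and 106, 123 and 387 after JPX-0750. All JPX-0750 libraries lay below DMSO, with a log2 fold change of -1.70 ± 0.63 that did not pass (adjusted p = 0.177), and the JPX-0700 value was -0.70 ± 0.63 (adjusted p = 0.550). PSMB7 read 0, 5.37 and 1.62 under DMSO, 4.61, 44.7 and 114 under JPX-0700 and 85.6, 13.6 and 74.97 under JPX-0750. The DMSO values rest on 17 reads in all, the JPX-0750 libraries lay above them, and the log2 fold changes were 3.60 ± 1.49 (adjusted p = 0.186) and 4.17 ± 1.49 (adjusted p = 0.158). With a pseudocount of 10 they were 1.93 and 2.25. With voom on the recovered reads the JPX-0750 value passed (adjusted p = 0.0275). The noncoding LOC100129034, which overlaps PSMB7, read 46.7, 69.0 and 23.1 with DMSO, 18.4, 26.1 and 0 after JPX-0700 and 17.1, 0 and 0 after JPX-0750 (log2 fold changes -2.42 ± 1.65 and -4.04 ± 1.65, adjusted p = 0.429 and 0.246). Whether reads were assigned differently between these overlapping genes was not tested.

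PSMB10, the inducible counterpart of PSMB7, read 544, 382 and 303 in the DMSO libraries, 226, 328 and 69.5 in the JPX-0700 libraries and 308, 373 and 238 in the JPX-0750 libraries. Its log2 fold changes were -1.20 ± 0.59 (adjusted p = 0.277) and -0.40 ± 0.59 (adjusted p = 0.807), and both treated groups overlapped DMSO. As a share of the reads on PSMB5 to PSMB10, PSMB10 made up 38.4%, 24.6% and 26.9% in the DMSO libraries. It made up 37.4% (exact 95% binomial interval 29.1% to 46.3%), 48.4% (40.9% to 55.9%) and 4.08% (2.66% to 5.97%) with JPX-0700, and 49.2% (41.7% to 56.7%), 57.3% (48.8% to 65.6%) and 23.3% (19.97% to 26.8%) with JPX-0750. Replicate 3 was the lowest library of each compound. The intervals cover counting error only, since reads without molecular identifiers are not independent molecules. The share holds no reads of PSMB8 or PSMB9, and PSMB7 gave it 0, 14 and 3 reads in the DMSO libraries. With DMSO it thus sets PSMB10 almost only against PSMB5 and PSMB6. It does not measure the immunoproteasome against all constitutive cutting subunits.

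The ATPase ring held the 1 subunit that passed. PSMC1 (Rpt2, whose tail helps to open the core's gate; chromosome 14, 90256553 to 90275429) read 485, 142 and 419 with DMSO, and 1226, 2829 and 1370.0 with JPX-0700. It rose 5.46-fold with JPX-0700 (log2 fold change 2.45 ± 0.59, adjusted p = 0.0174), higher in 3 of 3 libraries than in any DMSO library. With JPX-0750 it read 1996, 1759.9 and 486, so that replicate 3 stood just above the highest DMSO library, and the log2 fold change of 1.96 ± 0.59 did not pass (adjusted p = 0.0789). Leaving out DMSO replicate 2 (adjusted p = 0.116), JPX-0700 replicate 2 (0.0598) or JPX-0700 replicate 3 (0.0565) ended the JPX-0700 call. It was also lost with total-sum scaling (0.109), scaling to protein-coding reads (0.0820), quantile normalization (0.0511) and a fit of the compared groups alone (0.0543). Under each of the 21 alternatives the fitted value stayed positive, between 1.72 and 2.92. Some of these settings, such as leaving out a JPX-0750 library, could not change that value. The JPX-0750 value passed without JPX-0750 replicate 3 (0.0327) and with voom on the recovered reads (0.0287). Its counts may share reads with other genes: RefSeq names pseudogenes for 20 of the 43 subunits, 13 of them for PSMC1 alone, and 18 subunits overlap another gene. The far end of PSMC1 overlaps NRDE2 on the opposite strand, and which strand was counted is not stated in these sources. NRDE2 read 85.3, 116 and 91.5 with DMSO, 318, 186 and 595 after JPX-0700 and 301, 173 and 16.7 after JPX-0750 (log2 fold change 1.75, adjusted p = 0.272 with JPX-0700; 0.00, adjusted p = 1 with JPX-0750).

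None of the other 5 ATPases passed in limma with either compound, and 1 of them (PSMC6) had an unadjusted p under 0.05, with JPX-0700. PSMC6 read 35.0, 134 and 178 under DMSO, 304, 249.7 and 492 under JPX-0700 and 223, 177 and 168 under JPX-0750. All JPX-0700 libraries lay above DMSO, and the log2 fold changes of 1.81 ± 0.65 and 0.99 ± 0.65 did not pass (adjusted p = 0.122 and 0.522). PSMC3 read 738, 374 and 641 in the DMSO libraries, 677, 2001 and 464 in the JPX-0700 libraries and 1318, 1319 and 268 in the JPX-0750 libraries. Its treated libraries lay on both sides of the DMSO range (adjusted p = 0.615 and 0.784). PSMC4 spread from 109 to 526 with DMSO and from 130.1 to 831 in treated libraries. PSMC2 and PSMC5 had fitted log2 fold changes of -0.82 and -0.74 with JPX-0700, where all their libraries lay below DMSO, and of -0.36 and -0.58 with JPX-0750, and 0 of these passed.

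**Figure D4:**
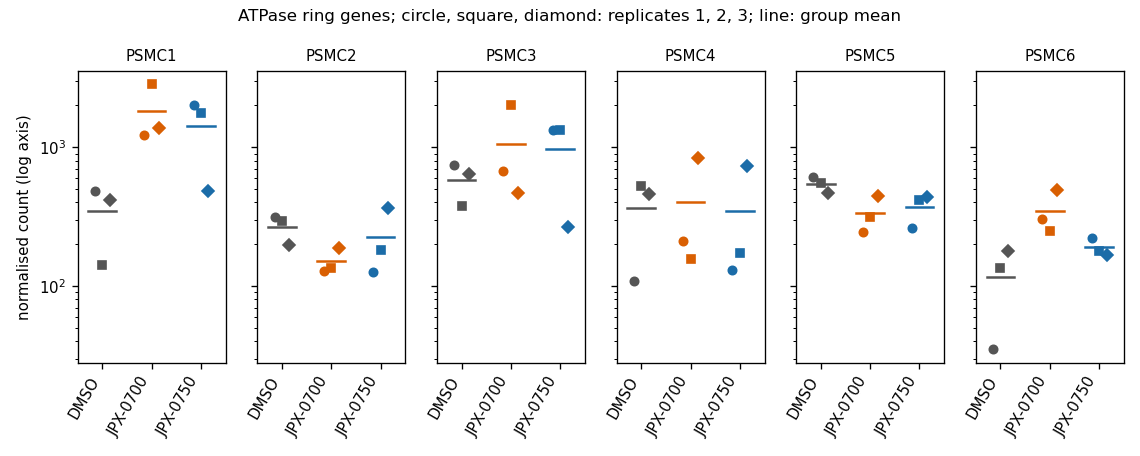
Normalised counts of the 6 ATPase ring genes in each library on a log axis, with 3 points per group and a line at the group mean. PSMC1 shows the JPX-0700 points at 1226 to 2829, above DMSO at 142 to 485, while PSMC3 shows treated points on both sides of DMSO.

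The non-ATPase class was taken by symbol as every PSMD gene, so it includes the assembly chaperone PSMD10. It gave 0 called of 14 with either compound. Its medians were -0.66 with JPX-0700 and -0.41 with JPX-0750, and 11 and 10 of the 14 were fitted below 0. PSMD13, a lid subunit, read 462, 478 and 309 with DMSO, 101, 242 and 145 after JPX-0700 and 171, 291 and 242 after JPX-0750. Every treated library lay below DMSO, with a log2 fold change of -1.41 ± 0.54 with JPX-0700 (adjusted p = 0.149) and -0.83 ± 0.54 with JPX-0750 (adjusted p = 0.514). The JPX-0700 value passed with total-sum scaling (adjusted p = 0.0321) and with quantile normalization (0.0493). PSMD8 read 1085, 809 and 696 under DMSO, 336, 619 and 667 under JPX-0700 and 342, 537 and 408 under JPX-0750 (log2 fold change -1.01 ± 0.46 with JPX-0750, adjusted p = 0.316). PSMD2, the scaffold that receives ubiquitin shuttle proteins, read 609, 507 and 567 with DMSO and at most 414 in any treated library. Its log2 fold changes were -0.81 ± 0.52 and -1.06 ± 0.52 (adjusted p = 0.407 and 0.373). PSMD14, the enzyme that removes ubiquitin chains from substrates, read 251, 587 and 466 in the DMSO libraries, 604, 1025 and 186 in the JPX-0700 libraries and 613, 646 and 228 in the JPX-0750 libraries. Replicate 3 of each compound lay below the DMSO range and replicates 1 and 2 above it. PSMD7, its partner in the lid, had means of 499 ± 67.7, 487 ± 190.3 and 487 ± 54.5 in the 3 groups. PSMD10, an assembly chaperone of the ATPase ring, read 190.4, 89.7 and 63.0 with DMSO and 5.56 to 63.4 in treated libraries (log2 fold changes -1.93 ± 1.11 and -1.82 ± 1.11, adjusted p = 0.348 and 0.477). PSMD12, a lid subunit, read 202, 133 and 371 with DMSO, 290.3, 265 and 336 after JPX-0700 and 202, 168 and 378 after JPX-0750, with the largest positive JPX-0700 value of the class at 0.46 ± 0.56. The largest positive JPX-0750 value was 0.82 ± 0.93 for PSMD6, at 185, 182 and 503 against 129, 165 and 144 with DMSO. For PSMD1, PSMD3, PSMD4, PSMD5, PSMD9 and PSMD11 the fitted values lay between -1.17 and 0.16 with both compounds.

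The activators gave 0 of 4 called with either compound. PSME1 and PSME2 together form the interferon-inducible cap, PSME3 forms a nuclear cap of its own, and PSME4 forms a large cap known from sperm and from DNA repair. PSME1 read 563, 619 and 918 with DMSO, 742, 439.8 and 923 after JPX-0700 and 479, 605 and 491 after JPX-0750 (log2 fold changes -0.03 ± 0.45 and -0.39 ± 0.45, adjusted p = 0.980 and 0.739). PSME2 read 392, 308 and 396, then 152, 145 and 383, then 178, 218 and 332 in the same order of groups (-0.83 ± 0.55 and -0.63 ± 0.55, adjusted p = 0.414 and 0.640). PSME3 read 217, 335 and 326 under DMSO, 129, 153 and 614 under JPX-0700 and 123, 186 and 175 under JPX-0750, so that the JPX-0750 libraries all lay below DMSO (-0.32 ± 0.62 and -0.85 ± 0.62, adjusted p = 0.800 and 0.564). PSME4 read 228, 130.0 and 212 in the DMSO libraries, 184, 153 and 11.1 in the JPX-0700 libraries and 168, 150.1 and 223 in the JPX-0750 libraries (-1.40 ± 0.86 and -0.05 ± 0.86, adjusted p = 0.380 and 0.988). The JPX-0700 value of PSME4 was -0.14 without replicate 3.

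Replicate 3 of both compounds and DMSO replicate 1 detected the fewest genes. Replicate 3 of each compound also often stood apart from its partners, while DMSO replicate 1 correlated with its own at 0.869 and 0.875. The counts were repeated without these 3 libraries, as an alternative chosen after seeing the data. With JPX-0700, PSMC1 was then called higher and 5 subunits lower (PSMB5, PSMB6, PSMC4, PSME2 and PSME3). With JPX-0750, PSMC1 was called higher and 3 lower (PSMB2, PSMB6 and PSMC4). All-gene calls were then 2158 higher and 443 lower with JPX-0700, and 2184 higher and 375 lower with JPX-0750. PSMB6 had a log2 fold change of -1.40 with JPX-0700 (adjusted p = 0.0349) and -2.35 with JPX-0750 (adjusted p = 0.00673) in that fit.

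Set directly against each other, the compounds gave 0 called of 39 subunits in either direction, beside 0% of all 12301 genes called (395 genes, and 0 subunits, had an unadjusted p under 0.05). Doses are not given, so whether they matched is unknown. The median subunit difference of JPX-0750 from JPX-0700 was -0.12, where the all-gene median was 0.10. PSMC6 was the 1 subunit with all JPX-0750 libraries below JPX-0700, where 3.63% of all genes did so, and 0 had them all above, where 4.72% did. The 95% intervals stayed wide: for PSMC1 the difference was -0.49 (-1.74 to 0.75), for PSMB6 -0.999 (-2.32 to 0.32) and for PSMB10 0.80 (-0.45 to 2.05). The 5 smallest p-values belonged to PSMD6, PSMA8, PSMD9, PSMB6 and PSME4. PSMD6 differed by 1.94 (-0.02 to 3.89), with 8.34 in JPX-0700 replicate 3 against 207 and 157 in its partners. PSMA8 differed by 2.38 (-0.47 to 5.24), PSMD9 by 1.20 (-0.34 to 2.74) and PSME4 by 1.35 (-0.45 to 3.15). All 5 had an adjusted p of 0.848.

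Of 18 genes for proteasome assembly and regulation, 1 rose and 0 fell with each compound. Over all genes, 5.77% passed in either direction with JPX-0700 and 3.98% with JPX-0750. ZFAND2A, a stress-inducible zinc finger protein that binds the regulatory particle, read 27.8, 28.8 and 23.7 with DMSO, 438, 443 and 586 after JPX-0700 and 483, 332 and 456 after JPX-0750. It rose 17.6-fold with JPX-0700 (adjusted p = 7.15e-05) and 15.2-fold with JPX-0750 (adjusted p = 0.000128), in 3 of 3 libraries each. It passed under all 21 alternatives with each compound. PSMG1, a chaperone of alpha-ring assembly, read 179, 172 and 134 with DMSO and at most 83.0 in any treated library, with log2 fold changes of -2.27 ± 1.002 and -2.29 ± 1.002 that did not pass (adjusted p = 0.221 and 0.292). The JPX-0750 value of PSMG1 passed without JPX-0700 replicate 3, which shares the estimate of spread (0.0158), with the compared groups alone (0.0329), with quantile normalization (0.0195) and with the 3 libraries of fewest detected genes left out (0.0183). TXNL1, a redox protein bound to the regulatory particle, read 237, 214 and 275 with DMSO and 22.2 to 177 in treated libraries (adjusted p = 0.120 and 0.544). POMP, the chaperone of core maturation, differed by -0.50 and -0.77 on the log2 scale (adjusted p = 0.605 and 0.520). Between the compounds the smallest p-values of the list belonged to AKIRIN2, which carries proteasomes into the nucleus, ZFAND5 and the ubiquitin protease USP14, and none of the 3 passed (adjusted p = 0.848 each). AKIRIN2 stood at 8.34 in JPX-0700 replicate 3 against 67.1 or more in its partners, and ZFAND5 at 634 there against 101 and 130.4.

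In the list of NFE2L1, the factor known to raise proteasome genes when the proteasome is impaired, and its processing partners, 0 of 12 passed with either compound. Over all genes, 5.77% passed with JPX-0700 and 3.98% with JPX-0750. NFE2L1 read 112, 109 and 98.5 under DMSO, 419, 507 and 264 under JPX-0700 and 401, 364 and 169.9 under JPX-0750. Every treated library lay above DMSO, with log2 fold changes of 1.84 ± 0.55 (adjusted p = 0.0598) and 1.45 ± 0.55 (adjusted p = 0.199). The JPX-0700 value of NFE2L1 passed without JPX-0700 replicate 3 (0.0189), without JPX-0750 replicate 3 (0.0328), with a minimum mean of 50 (0.0345) and with voom on the recovered reads (0.0373), and the JPX-0750 value without JPX-0700 replicate 3 (0.0447). Without the 3 libraries with the fewest genes both passed (0.00547 and 0.00828). VCP, the segregase that extracts NFE2L1 and other proteins from the membrane, read 798, 623 and 634 with DMSO and 189 to 496 in treated libraries, all below DMSO (-1.19 ± 0.46 and -0.52 ± 0.46, adjusted p = 0.157 and 0.644; 0.0336 for JPX-0700 with total-sum scaling). NFE2L2, the oxidative stress relative of NFE2L1, read 287, 255 and 433 in the DMSO libraries, 618, 376 and 1123 in the JPX-0700 libraries and 438, 377 and 90.0 in the JPX-0750 libraries (adjusted p = 0.379 and 0.835). MAFG, a small partner of both factors, read 402, 375 and 258 with DMSO and 804, 618 and 679.7 with JPX-0750, a log2 fold change of 1.04 ± 0.55 (adjusted p = 0.412). SYVN1, a ubiquitin ligase of the endoplasmic reticulum, had 1.64 ± 1.37 with JPX-0750 (adjusted p = 0.624). Of the 5 ubiquitin shuttle factors, which carry tagged proteins to the proteasome, 0 passed, with medians of -0.73 and -0.61. With JPX-0700 RAD23B had a log2 fold change of -0.73 ± 0.73 (adjusted p = 0.604) and UBQLN2 -0.83 ± 1.15 (adjusted p = 0.717). With JPX-0750 UBQLN1 had -0.82 ± 0.78, RAD23B -0.62 ± 0.73 and UBQLN4 -0.61 ± 1.38.

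**Figure D5:**
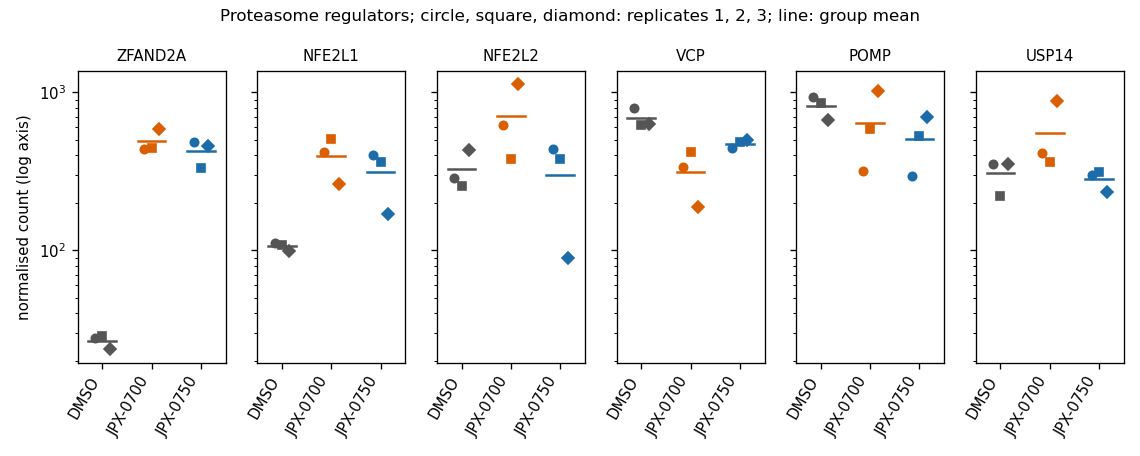
Normalised counts of 6 proteasome regulators in each library on a log axis, with 3 points per group and a line at the group mean. ZFAND2A points lie at 23.7 to 28.8 with DMSO and at 332 to 586 in treated libraries, and NFE2L1 and VCP points of treated libraries lie above and below DMSO, respectively.

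For MHC class I antigen processing, which uses peptides cut by the proteasome, 12 of 16 genes were tested and 0 passed with either compound. The share of all genes that passed was 5.77% with JPX-0700 and 3.98% with JPX-0750. TAP1, TAP2 and HLA-E were listed at 0 in all 9 libraries, and TAPBP lay below the minimum. The median log2 fold changes were -0.12 with JPX-0700 and 0.05 with JPX-0750. CANX, a chaperone of newly made class I chains, read 3028, 2143 and 2759.5 with DMSO and 843 to 1905 in treated libraries, all below DMSO (-0.98 ± 0.41 and -0.68 ± 0.41, adjusted p = 0.190 and 0.474). The JPX-0700 value of CANX passed with total-sum scaling (0.0160), scaling to protein-coding reads (0.0421) and quantile normalization (0.0204). NLRC5, the transactivator of class I genes, ran from 39.5 to 113 with DMSO and from 0 to 85.6 in treated libraries (adjusted p = 0.371 and 0.690). HLA-C, a class I heavy chain, read 3.59, 2.30 and 1.08 with DMSO, 18.4, 104 and 88.9 after JPX-0700 and 44.5, 27.3 and 10.00 after JPX-0750. Every treated library lay above DMSO, at log2 fold changes of 4.17 ± 1.33 (adjusted p = 0.0777) and 2.94 ± 1.33 (adjusted p = 0.313). The JPX-0700 value of HLA-C passed with voom on the recovered reads (0.0211), and both compounds' values passed without the 3 libraries with the fewest genes (0.0229 and 0.0289). Class I heavy chain genes are close copies of each other, so reads may be split between them and these values are uncertain. HLA-B had 1.28 ± 0.70 with JPX-0750 (adjusted p = 0.430), and ERAP1, a trimming peptidase, had 2.86 ± 1.48 (adjusted p = 0.399; 0.0438 without those 3 libraries).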

How the data were processed

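The deposited table holds normalised counts of 26929 genes in 9 libraries. Per the submitters' processing notes, the tools were STAR (2.4.2a), FastQC (0.11.9), featureCounts (2.0.3), SAMtools (1.4) and DESeq2 (no version), with the build GRCh38. How multi-mapping reads were counted is not stated there. Every value of a library was a whole multiple of its smallest value above 0 (tolerance 1e-06), so whole reads were recovered by division. 

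Tests used limma 3.58.1 in R 4.3.3 on log2(normalised count + 1), with a mean per group over all 9 libraries (6 residual degrees of freedom), variances that follow a trend on expression, genes with a mean of at least 5, and two-sided Benjamini-Hochberg adjustment over 12301 genes. A fold change is on that scale, which understates the change of low genes. The fit was tested on simulated data. Alternatives covered the pseudocount, the minimum, the scaling, the samples fitted, a replicate block and each library left out. Coordinates, overlaps and promoters came from RefSeq, to which 24159 symbols matched directly and 1407 through a synonym (SEM1 is listed as SHFM1, for example), and 1363 did not.

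The subunits, partner lists and tests were chosen with earlier results of these data known. Statistics are given for called subunits, the 5 smallest p-values per comparison, PSMB5 to PSMB10, PSME1 to PSME4 and the 3 highest DMSO levels, and for called genes and the 3 smallest p-values per partner list. Other subunits were named after their values were seen. A few genes that this rule selects are not reported here. Replicate numbers come from the sample titles. Same-numbered libraries of the 2 compounds deviated together from their group means (correlations across genes 0.129, 0.171 and 0.190), although JPX-0700 replicate 2 and JPX-0750 replicate 1 also reached 0.153 and DMSO replicate 3 and JPX-0700 replicate 1 reached 0.188, whereas DMSO and treated libraries of 1 number did not (-0.143 to -0.0436).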

Additional observations from a re-analysis of the deposited data

How the results depend on the processing

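The count of called subunits was small enough that single settings changed it. With JPX-0700 it went from 1 to 0 with scaling to protein-coding reads and with the compared groups alone. It went to 6 (1 higher, 5 lower) when DMSO replicate 1 and replicate 3 of each compound were left out, and ran from 0 to 1 with 1 library left out. With JPX-0750 it went from 0 to 4 (1 higher, 3 lower) without those 3 libraries and to 2 with voom, and ran from 0 to 1 with 1 library left out. Between the compounds it was 0 under every setting run. All-gene calls with JPX-0700 went from 710 to 373 with the compared groups alone, to 2601 without the 3 libraries and to 1299 with voom, and ran from 390 to 954 with 1 library left out. With JPX-0750 they went from 489 to 795, 2559 and 945 under the same settings, and ran from 254 to 1096. The cause was not tested. The fits without the 3 libraries and with voom were chosen after seeing the data.

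A fit with the replicate block gave 1 subunit called with JPX-0700, 0 with JPX-0750 and 0 between the compounds, and 694, 473 and 0 over all genes. With the pairing of the JPX-0700 and JPX-0750 libraries fitted alone, the replicate block again gave 0 subunits and 0 genes, so it changed no call between the compounds.

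The edgeR and DESeq2 alternatives planned for the recovered reads were not run. A share of PSMB8 against PSMB5 gave no value, because PSMB8 is listed at 0. The standard errors of fitted subunit differences were 0.45 or more on the log2 scale, and values as large as 4.17 ± 1.49 (PSMB7 with JPX-0750) did not pass. The part of read depth, 726043 to 1941860 reads per treated library, was not tested.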
